A study of Homo sapiens with 41 samples.

Results

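The mitochondrially encoded genes are the genes of the small circular genome that mitochondria carry, and they were taken here as every gene whose symbol starts with MT-. The count files held 37 of them among 58735 genes: 13 mRNAs for proteins, 2 ribosomal RNAs and 22 transfer RNAs. RNA was sequenced from LX-2, an immortalised human hepatic stellate cell line, and HMLE, an immortalised human mammary epithelial line, each with the hairpin shCtrl (control) or shATF4, which targets ATF4, a transcription factor of stress responses. LX-2 cells were given DMSO, TGFbeta (a cytokine that activates stellate cells), thapsigargin (an inhibitor of the calcium pump of the endoplasmic reticulum) or AA_Dep. HMLE cells were given DMSO, thapsigargin or AA_Dep, or carried Twist_OE, named for overexpression of the transcription factor Twist. AA_Dep is read here as amino acid deprivation. Each of the 16 groups had 2 samples. The labels give no dose, duration, hairpin sequence or clone, and all shCtrl controls carry a hairpin too. Nothing says that the 2 samples of a group came from separate cultures, so p-values measure the spread between these samples, which may be technical.

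Mitochondrial DNA is transcribed from both strands into long precursors, which are cut apart largely at the tRNAs that lie between the other genes. The mRNAs encode subunits of complex I (the ND genes), complex III (MT-CYB), complex IV (the CO genes) and the ATP synthase (the ATP genes). All other subunits of these machines, every subunit of complex II, and the polymerase, processing factors and tRNA synthetases that mitochondria use are made from nuclear genes. The rRNAs MT-RNR1 and MT-RNR2 form the core of the small and the large mitochondrial ribosome subunit, and MT-ND6 is the mRNA read from the other strand than the rest.

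In LX-2, 28 members passed the filter on low counts (13 mRNAs, 2 rRNAs and 13 tRNAs) of 18649 genes tested, and in HMLE 33 passed (13, 2 and 18) of 17940. The 4 members that failed the filter in HMLE and the 9 that failed it in LX-2 were all tRNAs. A gene is called higher or lower here where edgeR's quasi-likelihood test gave a Benjamini-Hochberg adjusted p under 0.05 over all genes tested in that fit, and log2 changes come from the same fit, with their standard error (SE). Total counts ranged from 14551191 to 18776430 in the 15 LX-2 libraries used and from 15956909 to 23243132 in the 15 of HMLE. The HMLE shATF4 AA_Dep files were identical and were counted as 1 library, whose spread was taken to equal that of the remaining groups. LX-2 shCtrl thapsigargin replicate 2 stood apart: 0.154% of its counts fell on the members against 2.34% in replicate 1, and all 13 mRNAs were below every other LX-2 library. How many of all genes lay below the others in replicate 2 is not given here. An earlier analysis of these files had found this library discordant with its replicate, and for that reason it was left out of the tests. LX-2 shCtrl thapsigargin thus also has 1 library, and values with the discordant library are given beside the results it touches. ATF4 itself was lower in shATF4 than in shCtrl in each of the 8 line and condition pairs, by between 0.91 and 2.78 on the log2 scale. The stellate marker list summed to between 1033 and 17615 CPM (counts scaled to the library total) in LX-2 and between 82.5 and 2022 in HMLE. These ranges overlap, and 6 of 10 stellate markers were above 1 CPM in all LX-2 libraries against 5 in HMLE. The mammary epithelial list summed to between 1676 and 15383 CPM in HMLE and between 473 and 1556 in LX-2.

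The members took a larger share of the RNA in each of the LX-2 libraries used than in any HMLE library outside AA_Dep. In LX-2 they held between 2.04% and 3.14% of all counts over the 15 libraries, and in HMLE between 0.366% and 2.95%. HMLE shCtrl DMSO libraries were at 0.518% and 0.571%, and LX-2 shCtrl DMSO libraries at 2.58% and 2.75%. The HMLE AA_Dep libraries reached the range of LX-2: shCtrl gave 2.57% and 2.95% and the 1 shATF4 library 2.54%, all above each of the other 12 HMLE libraries. The exact 95% binomial interval of each share was within 0.0083 percentage points on either side, which covers counting error only. The rRNAs made up 13.5% to 19.7% of member counts in HMLE and 6.67% to 9.94% in LX-2, ranges that do not overlap. How far these mRNA libraries capture rRNAs is not given in the sources used here, so these shares need not equal those in the cells. These are bulk libraries, so fewer cells of a type and less RNA per cell cannot be told apart, and every value is relative to the rest of the RNA.

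**Figure D1:**
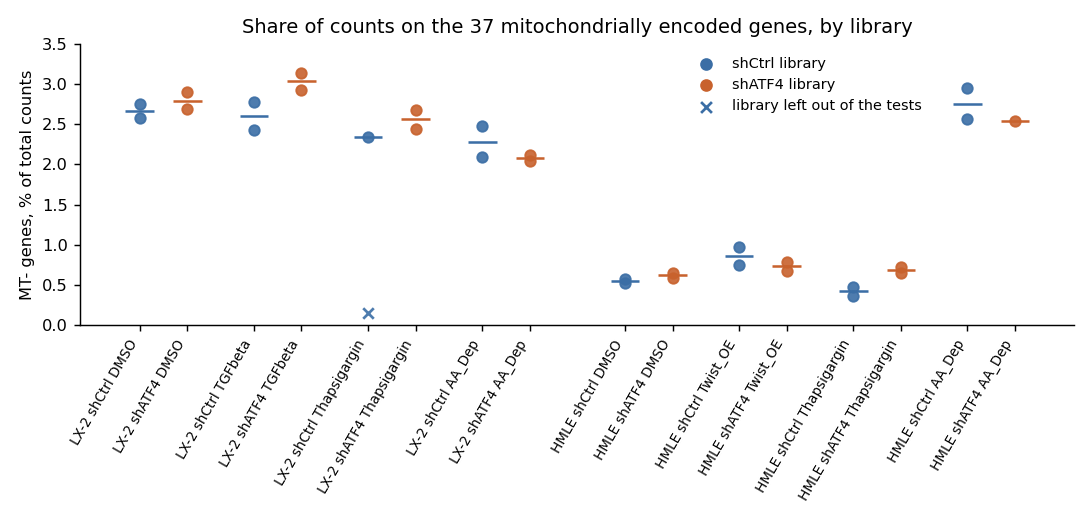
Share of total counts on the 37 members (percent, y axis) in each library, by group (x axis). Points are libraries and bars are group means over the libraries used. The cross is the LX-2 shCtrl thapsigargin library left out of the tests, at 0.154%, and the HMLE AA_Dep libraries lie at 2.54% to 2.95%, among the LX-2 libraries.

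Per length, the same mRNAs stood at the top and the bottom of the order in both lines. MT-CO1, the catalytic subunit of complex IV, was highest in shCtrl DMSO, at 5215 ± 255 CPM per kb in LX-2 and 1059 ± 60.2 in HMLE (SD, n = 2). MT-CO2 came next, with 3269 and 882 CPM per kb. In LX-2 the next places fell to MT-ND4 (2464 CPM per kb), MT-CO3 (2464) and MT-ATP6 (2402), which did not differ beyond their spread. In HMLE, MT-ATP6 (518 CPM per kb) and MT-CO3 (516) were equal within their SDs and stood above MT-ND3 (353), MT-ND4L (302) and MT-ND4 (298). MT-ND2, MT-ND1 and MT-ND6 came below these in both lines, with MT-ND1 at 1003 and 166 CPM per kb. In both, the mean of MT-ND5 was next to last (994 and 131 CPM per kb), though in LX-2 it did not differ beyond the spread from MT-ND1 or MT-ND2. MT-ATP8 was last, at 17.0 CPM per kb in LX-2 and 59.7 in HMLE.

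MT-ATP8 and MT-ND4L overlap their neighbours. MT-ATP8 shares 46 of its 207 bases with MT-ATP6 in the RefSeq annotation (GRCh38.p14, used for names, order and lengths), and MT-ND4L shares 7 of 297 bases with MT-ND4. Each pair lies on 1 transcript in human cells. Per-length levels and changes within a pair thus rest on how reads over both genes were counted. The sources used here do not give this. Counting by strand is not stated either: reads of a gene and of RNA from the opposite strand cannot be told apart. Nuclear pseudogene copies of mitochondrial genes can take or give reads as well, and their values stand at the end.

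The protein-coding members were higher in unstressed LX-2 than in unstressed HMLE, and MT-ATP8 went the other way. Of 34 members tested in shCtrl DMSO, 20 were higher in LX-2 and 2 lower, when 70.4% (35.9% higher and 34.5% lower) of all 20308 genes tested were called. The counts were 20 to 22 without any one library. MT-ND4, a membrane subunit of complex I, had the largest difference among the mRNAs, with 3308 and 3484 CPM in LX-2 against 396 and 425 in HMLE, a log2 difference of 2.86 ± 0.14 (edgeR adjusted p = 3.10e-16). MT-CYB, cytochrome b of complex III, differed by 2.85 ± 0.15 (edgeR adjusted p = 2.53e-15) and MT-ND5 by 2.73 ± 0.14 (edgeR adjusted p = 1.05e-15). The median log2 difference over the 13 mRNAs was 2.11, against 0.07 over all genes tested. MT-ATP8 had 3.20 and 3.84 CPM in LX-2 and 11.9 and 12.8 in HMLE, a log2 difference of -2.00 ± 0.33 (edgeR adjusted p = 6.63e-06). The rRNAs differed less: MT-RNR2 by 1.18 ± 0.10 (edgeR adjusted p = 1.08e-10) and MT-RNR1 by 0.36 ± 0.12 (edgeR adjusted p = 0.00764), the latter call lost without LX-2 shCtrl DMSO replicate 2 or HMLE shCtrl DMSO replicate 1.

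AA_Dep in HMLE gave the largest median change of the mitochondrial mRNAs of the 12 comparisons with DMSO. In shCtrl cells the members' share of counts was 0.544% ± 0.0377 (SD, n = 2) in DMSO and 2.76% ± 0.266 (SD, n = 2) in AA_Dep, 5.07-fold higher. Of 33 members tested in shCtrl cells, 27 rose and none fell, against 61.7% (29.1% higher and 32.6% lower) of the 17940 genes tested called. Both rRNAs, 12 of 13 mRNAs and 13 of 18 tRNAs were among the 27, and between 24 and 27 were called without any one library. The 33 include scarce tRNAs that passed the filter only through AA_Dep. These include MT-TK, MT-TM, MT-TV and MT-TD, at 1.37, 1.43, 2.68 and 1.83 CPM in AA_Dep and 0.022, 0.024, 0.044 and 0.024 in DMSO. MT-TS1, MT-TE and MT-TT did so too, at 0.730, 0.661 and 0.422 CPM in AA_Dep against 0, 0.140 and 0 in DMSO. MT-TW passed only through the shATF4 AA_Dep library, at 0.627 CPM. A call on any of these tRNAs could only be a rise, so they add no support to the count. The median log2 change of the mRNAs was 2.15, and that of all genes tested 0.00.

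Of the mRNAs and rRNAs, the 3 largest rises were in complex I members. MT-ND1, at which the complex binds ubiquinone, had 147 and 170.0 CPM in DMSO and 1496 and 1687 in AA_Dep, a log2 change of 3.22 ± 0.13 (edgeR adjusted p = 1.81e-13). MT-ND2 had 205 and 254 CPM in DMSO and 1881 and 2132 in AA_Dep, a log2 change of 3.02 ± 0.18 (edgeR adjusted p = 4.94e-11). The groups lay far apart in both genes, with each AA_Dep library several times above either DMSO library. MT-ND4L changed by 2.74 ± 0.08, MT-ND4 by 2.44 ± 0.13, MT-ND5 by 2.15 ± 0.13, MT-ND3 by 1.99 ± 0.16 and MT-ND6 by 1.63 ± 0.15 on the log2 scale (± SE), all past the threshold. MT-CYB rose by 2.57 on that scale. The mammary epithelial marker list, which summed to between 9121 and 9153 CPM in DMSO, was at 11652 to 11920 CPM in AA_Dep, with 5 of 10 markers higher, 3 lower and none at 0.

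Among complex IV members, MT-CO1 had 1568 and 1699 CPM in DMSO and 7000.0 and 8008 in AA_Dep, a log2 change of 2.09 ± 0.12 (edgeR adjusted p = 1.66e-11). MT-CO3 rose by 2.28 and MT-CO2 by 1.84 on the same scale. MT-ATP6, the proton channel subunit of the ATP synthase, rose by 1.86 ± 0.16. MT-ATP8, which lies beside it, did not pass: 11.9 and 12.8 CPM in DMSO, 10.8 and 16.7 in AA_Dep, a log2 difference of 0.04 ± 0.20 (edgeR adjusted p = 0.870). Its groups overlap, and it was the least abundant mRNA in both. The rRNAs rose by 2.12 ± 0.11 (MT-RNR1) and 2.20 ± 0.10 (MT-RNR2), within the range of the mRNAs.

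Members rose with the ATF4 hairpin too. The 1 shATF4 AA_Dep library had 1478 CPM of MT-ND1 against 193 and 215 in shATF4 DMSO, and 6882 CPM of MT-CO1 against 1665 and 1768. In shATF4 cells 25 members rose and none fell, against 54.1% (25.7% higher and 28.4% lower) of all genes called. The tRNAs that passed the filter only through AA_Dep are among the members tested here too. The median of the mRNAs was 1.81 on the log2 scale, and MT-ATP8 again did not pass (-0.18 ± 0.25, edgeR adjusted p = 0.571). Tested directly, the response differed between hairpins in none of the 33 members, against 5.09% (2.99% higher and 2.1% lower) of all genes. An unadjusted p under 0.05 was found in 4 of the 33 members, a smaller share than the 3071 of all 17940 genes. The 4 were mRNAs, with differences of -0.47 ± 0.18 in MT-CO3, -0.46 ± 0.19 in MT-ND5, -0.44 ± 0.19 in MT-ND1 and -0.31 ± 0.12 in MT-ND4L (log2, ± SE, shATF4 minus shCtrl). Within AA_Dep, shATF4 against shCtrl also gave no call among the members in edgeR, when 16.9% (9.77% higher and 7.09% lower) of all genes were called. There, 2 of the 33 members had an unadjusted p under 0.05, again a smaller share than the 5076 of all 17940 genes. DESeq2 called no member in either test. Without the filter on low counts edgeR called 13 members in the first test and 8 in the second, and 10 in each when only the compared groups were fitted.

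**Figure D2:**
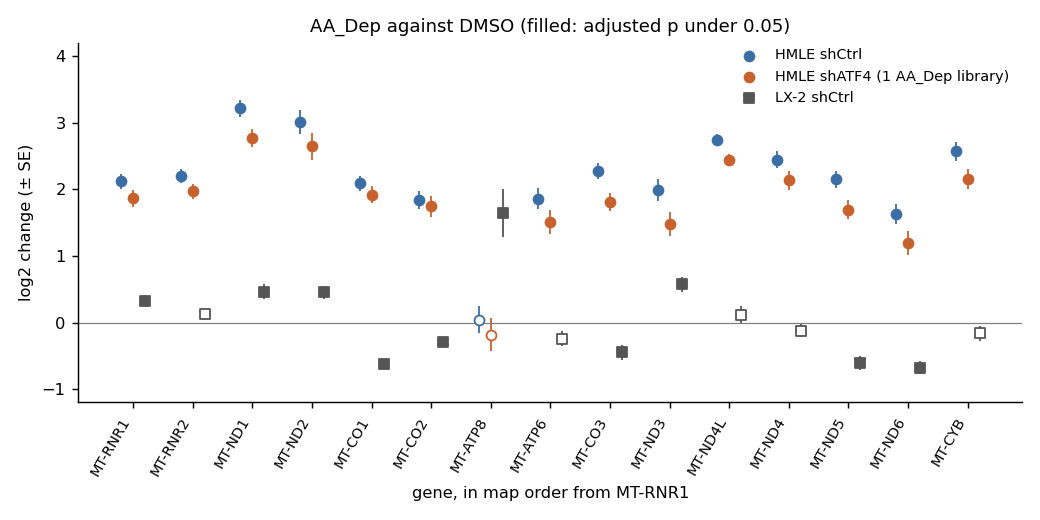
Log2 change from DMSO to AA_Dep (y axis, ± SE of the edgeR fit) of the 2 rRNAs and 13 mRNAs in map order from MT-RNR1 (x axis), for HMLE shCtrl, HMLE shATF4 and LX-2 shCtrl. Filled marks passed an adjusted p under 0.05; the HMLE marks lie between 1.19 and 3.22 except MT-ATP8, while the LX-2 marks lie between -0.68 and 1.65.

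LX-2 did not share the rise. Under AA_Dep the share of the members was 2.28% ± 0.276 (SD, n = 2) in shCtrl cells against 2.67% ± 0.124 (SD, n = 2) in DMSO, and single genes moved both ways. In shCtrl cells 6 of 28 members rose and 6 fell, against 45.6% (22.8% higher and 22.7% lower) of all 18649 genes called. MT-ND1 and MT-ND2 rose by 0.46 ± 0.11 and 0.45 ± 0.09, MT-ND3 by 0.57 ± 0.12, and MT-ATP8 by 1.65 ± 0.36. MT-CO1 fell from 7763 and 8319 CPM in DMSO to 4869.9 and 5705, a log2 change of -0.63 ± 0.08 (edgeR adjusted p = 1.40e-05). MT-ND6 (-0.68 ± 0.10), MT-ND5 (-0.61 ± 0.11), MT-CO3 (-0.45 ± 0.11) and MT-CO2 (-0.29 ± 0.08) fell as well. The 2 AA_Dep libraries differed from each other, with 1141 and 1541 CPM of MT-ND1 and 16.5 and 5.72 of MT-ATP8. The median over the mRNAs was -0.16 and became 0.037 without AA_Dep replicate 1. Single calls were lost without 1 DMSO library, MT-CO2 without replicate 2 and MT-RNR1 (0.33 ± 0.09) without replicate 1, and with the discordant thapsigargin library in the fit no member was called. The stellate marker list fell alongside, from 6350 to 6620 CPM in DMSO to 1262 to 1398 CPM in AA_Dep (6 of 8 tested markers lower and 1 higher), and its part in these changes was not tested.

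The difference between the lines in this response was tested directly in shCtrl cells. It was called in 22 of 34 members, 21 lower in LX-2 and 1 higher, against 40.3% (21% higher and 19.3% lower) of all 20308 genes. Scarce tRNAs that passed the filter only through HMLE AA_Dep, such as MT-TK and MT-TV, are among the 34. These could only be called lower and add no support to the count. All 12 mRNAs other than MT-ATP8 were lower, from -1.44 (MT-ND3) to -2.79 (MT-ND5), with a median over the 13 of -2.59. MT-CO1 gave -2.74 ± 0.16 (edgeR adjusted p = 5.08e-13) and MT-RNR2 -2.10 ± 0.15 (edgeR adjusted p = 1.23e-11). MT-ATP8 was the 1 member with a larger change in LX-2, 1.58 ± 0.44 (edgeR adjusted p = 0.00556), a call lost without LX-2 shCtrl AA_Dep replicate 1. Between 20 and 24 members were called without any one library, and 10 when the discordant thapsigargin library entered the fit. This contrast shares its DMSO libraries with the comparison of unstressed lines.

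In shATF4 LX-2 cells 14 of 28 members fell under AA_Dep and 5 rose, against 42.4% (20.3% higher and 22.1% lower) of all genes called, and 1 was called with the discordant library in the fit. MT-ND5, a membrane subunit of complex I, had 1669.7 and 1768 CPM in DMSO and 908 and 1053 in AA_Dep, a log2 change of -0.90 ± 0.11 (edgeR adjusted p = 8.69e-06). MT-ND6 fell by 0.86 and MT-CO1 by 0.64 on the log2 scale; MT-CO3, MT-ATP6, MT-CYB, MT-ND4 and MT-CO2 fell by between 0.40 and 0.64. MT-ATP8 rose by 2.41 ± 0.38 and MT-ND3 by 0.67 ± 0.12. Against shCtrl, the response was lower in MT-ND2 (-0.69 ± 0.13, edgeR adjusted p = 0.00418), MT-ND1 (-0.64 ± 0.16, edgeR adjusted p = 0.0187) and both rRNAs, 4 members in all, when 10.6% (3.91% higher and 6.65% lower) of all genes were called. That count was 14 without LX-2 shCtrl AA_Dep replicate 1, 2 without LX-2 shATF4 DMSO replicate 2, and 0 with the discordant library in the fit. The MT-ND1 call was lost without any one of 5 libraries (both shATF4 AA_Dep libraries, shATF4 DMSO replicate 2 and both shCtrl DMSO libraries).

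Thapsigargin in LX-2 gave calls in both directions. In the 1 shCtrl library 7 of 28 members were called higher and 9 lower than in DMSO, against 40.5% (20.2% higher and 20.4% lower) of all genes called; the count of 16 was 10 without LX-2 shCtrl DMSO replicate 1. MT-ATP8 had 21.1 CPM against 3.20 and 3.84 in DMSO, a log2 change of 2.48 ± 0.40 (edgeR adjusted p = 1.38e-04). MT-ND3, a small core subunit of complex I, had 802 CPM against 427 and 499.7, a log2 change of 0.69 ± 0.14 (edgeR adjusted p = 9.70e-04). Of the rest, MT-ND5 fell by 0.76, MT-ND6 by 0.70 and MT-CYB by 0.55 on the log2 scale, and MT-ATP6, MT-CO1 and MT-CO2 by between 0.29 and 0.44. MT-ATP6 and MT-CO2 were lost without LX-2 shCtrl DMSO replicate 2. With the discordant library included, 5 members were called and MT-ND3 was at -0.27. The stellate marker list summed to 1033 CPM in the thapsigargin library, below its DMSO range of 6350 to 6620 CPM, and its part was not tested.

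In shATF4 LX-2, where both thapsigargin libraries stood with the rest, 2 members rose and 8 fell, against 37.1% (17.8% higher and 19.2% lower) of all genes called. MT-ND6 had 621 and 591 CPM in DMSO and 379.8 and 315 in thapsigargin, a log2 change of -0.87 ± 0.10 (edgeR adjusted p = 7.13e-06). MT-ND5, its neighbour on the opposite strand, had 1669.7 and 1768 and then 1141 and 1156 CPM, a log2 change of -0.65 ± 0.11 (edgeR adjusted p = 1.92e-04). MT-ATP8 rose from 3.26 and 2.01 CPM to 9.04 and 7.56, by 1.60 ± 0.39 on the log2 scale, a call lost without LX-2 shATF4 DMSO replicate 2. Without that library 4 members were called in place of 10, without either thapsigargin library 6, and with the discordant library 1. MT-ATP8 was thus higher in each of the 4 stressed LX-2 groups than in the matching DMSO group, and none of the stressed libraries used overlapped its DMSO libraries. The discordant library lay below DMSO, at 0.590 CPM. MT-ND5 and MT-ND6 fell in all 4 stressed groups. As MT-ATP8 overlaps MT-ATP6, its changes rest on how reads over both genes were counted, which is not given. The stellate list was lower in both shATF4 stress groups too, at 1445 to 1488 CPM in thapsigargin and 1458 to 1474 CPM in AA_Dep. These 4 comparisons share 2 DMSO groups and are given side by side.

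**Figure D3:**
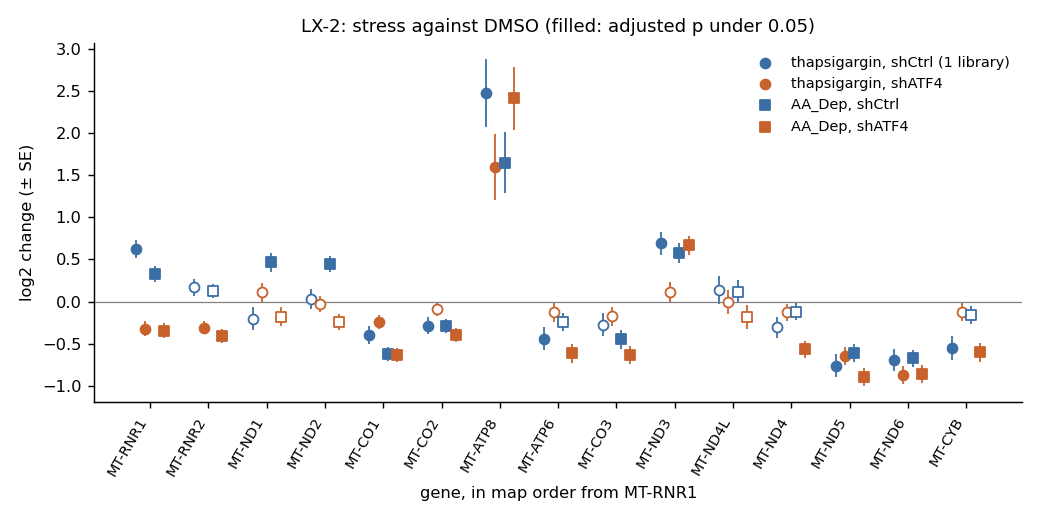
Log2 change from DMSO (y axis, ± SE of the edgeR fit) of the rRNAs and mRNAs in map order (x axis) in LX-2 under thapsigargin (circles) and AA_Dep (squares), shCtrl blue and shATF4 orange. Filled marks passed an adjusted p under 0.05; MT-ATP8 lies between 1.60 and 2.48, and MT-ND5 and MT-ND6 lie below 0 in all 4.

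Under thapsigargin in shCtrl HMLE the members called were all lower, but a smaller share was called than of all genes, and the calls rested on single libraries. In shCtrl cells 10 of 33 members fell and none rose, against 36.8% (18.6% higher and 18.2% lower) of all genes called. MT-CYB changed by -0.58 ± 0.14 (edgeR adjusted p = 0.00225), MT-ND6 by -0.56 ± 0.16 (edgeR adjusted p = 0.00918) and MT-RNR1 by -0.42 ± 0.11 (edgeR adjusted p = 0.00601); the median of the mRNAs was -0.38. The 2 thapsigargin libraries differed, with 184 and 112 CPM of MT-CYB and 1431 and 1036 of MT-CO1, against 221 and 236 and 1568 and 1699 in DMSO. Without thapsigargin replicate 2, 2 members were called, and without DMSO replicate 2, 1. DESeq2 called 2 (the Wald test). The mammary epithelial marker list moved alongside, from 9121 to 9153 CPM in DMSO to 14631 to 14796 CPM in thapsigargin (9 of 10 markers higher and none lower), and its part was not tested. In shATF4 cells 1 member was called, MT-RNR2, higher by 0.36 ± 0.10 (edgeR adjusted p = 0.00722), against 32.5% (16.8% higher and 15.7% lower) of all genes; it was not called without shATF4 DMSO replicate 1 or thapsigargin replicate 2.

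Compared within thapsigargin, all 13 mRNAs, both rRNAs and MT-TL1 were higher in shATF4 than in shCtrl HMLE cells. These 16 calls among 33 members compare with 24.3% (12.3% higher and 11.9% lower) of all genes called, and 13 to 16 were called without any one library. MT-ND1 had 215 and 239.8 CPM in shATF4 and 133 and 101 in shCtrl, a log2 difference of 0.94 ± 0.12 (edgeR adjusted p = 1.34e-05). MT-RNR1 had 179 and 209 against 100.4 and 106 CPM, a log2 difference of 0.90 ± 0.11 (edgeR adjusted p = 8.92e-06). Neither gene overlapped between the hairpins. The mRNAs ranged from 0.46 (MT-ND4L) to 0.94 (MT-ND1), with a median of 0.64 against 0.01 over all genes. With a minimum absolute log2 difference of 1 the count was 1. MT-ATP8, MT-ND3 and MT-ND6 were each lost without 1 or another of the thapsigargin libraries. The epithelial marker list summed to 14631 to 14796 CPM in shCtrl and 15247 to 15383 CPM in shATF4.

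A smaller difference in the same direction was there in DMSO, but a smaller share of the members was called than of all genes. There, 3 members were higher in shATF4 and none lower, against 12.8% (6.08% higher and 6.72% lower) of all genes called: MT-RNR2 (0.42 ± 0.10, edgeR adjusted p = 0.00708), MT-RNR1 (0.38 ± 0.11, edgeR adjusted p = 0.0294) and MT-ND1 (0.38 ± 0.12, edgeR adjusted p = 0.0460). MT-ND1 was lost without any one of the 4 libraries. No member was called without shATF4 DMSO replicate 2 or shCtrl DMSO replicate 1, and 1 without shCtrl DMSO replicate 2. When the thapsigargin response itself was compared between hairpins, edgeR called none of the 33 members, against 4.56% (2.16% higher and 2.4% lower) of all genes. Even so, 13 of the 15 mRNAs and rRNAs had an unadjusted p under 0.05, against 2916 of all 17940 genes. The differences of all 15 ran from 0.23 to 0.66 on the log2 scale, with MT-ND4 at 0.57 ± 0.17 (edgeR adjusted p = 0.0723). Without shCtrl thapsigargin replicate 1, 8 were called, and 13 were called without the filter on low counts, so the absence of a call does not show equal responses. DESeq2 called none.

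**Figure D4:**
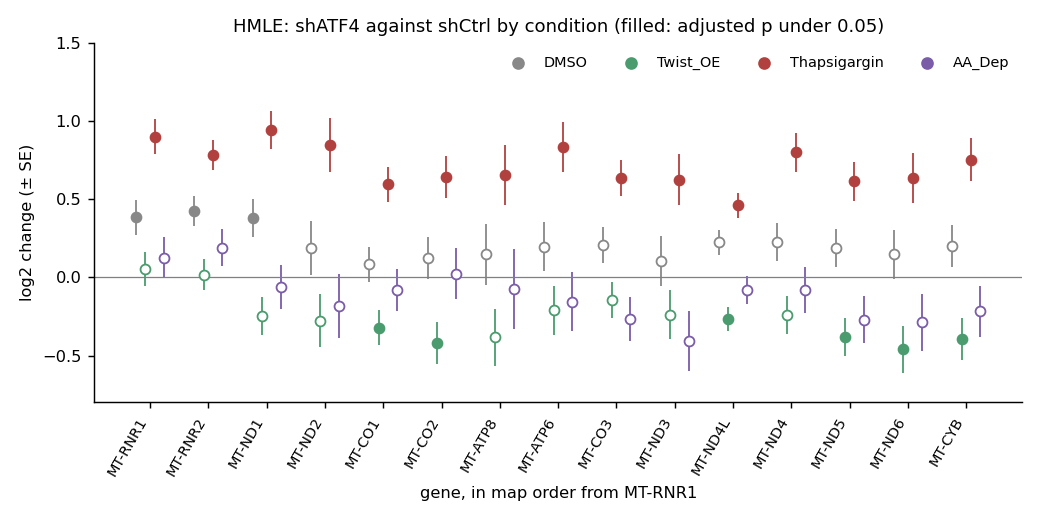
Log2 difference of shATF4 from shCtrl (y axis, ± SE of the edgeR fit) in HMLE for the rRNAs and mRNAs in map order (x axis), by condition. Filled marks passed an adjusted p under 0.05; all 15 thapsigargin marks lie above 0, between 0.46 and 0.94, and the Twist_OE marks of the mRNAs lie below 0.

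Twist_OE came with more mitochondrial mRNA in shCtrl HMLE. All 13 mRNAs, both rRNAs and 2 tRNAs rose and 1 tRNA fell, against 57.2% (28.3% higher and 28.9% lower) of all genes called. MT-CO1 had 2405 and 3049 CPM against 1568 and 1699 in DMSO, a log2 change of 0.75 ± 0.11 (edgeR adjusted p = 1.16e-05). MT-ND6 rose by 0.80 ± 0.15, MT-ND1 by 0.79 ± 0.12 and MT-CYB by 0.78 ± 0.14; of the mRNAs MT-CO3 rose least, by 0.42 ± 0.12. Each Twist_OE library was above each DMSO library in every mRNA and rRNA except MT-ND3. How many of all genes keep these libraries apart in the same way is not given here. The 2 Twist_OE libraries differed in the members' share, 0.742% and 0.969%, and without replicate 2 the count of 18 was 11. MT-ATP6, MT-ATP8, MT-CO3, MT-ND2, MT-ND3 and MT-RNR1 were not called then.

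With the ATF4 hairpin, Twist_OE raised 1 member, MT-CO1, by 0.34 ± 0.11 (edgeR adjusted p = 0.0225), against 35.3% (18.2% higher and 17.2% lower) of all genes called; it was not called without either shATF4 DMSO library or without Twist_OE replicate 2. The response was called different between hairpins in a slightly smaller share of members than of all genes, 9 of 33 against 29.7% (16.3% higher and 13.4% lower). It was lower in shATF4 than in shCtrl in 8 members and higher in 1. These were MT-ND1 (-0.63 ± 0.17, edgeR adjusted p = 0.00818), MT-ND4L (-0.49 ± 0.11, edgeR adjusted p = 0.00228), MT-ND6, MT-CYB, MT-ND5, MT-CO2, MT-ND4 and MT-RNR2, the last 6 between -0.61 and -0.41. MT-TP was higher (0.93 ± 0.20, edgeR adjusted p = 0.00158). The count of 9 was 2 without shCtrl DMSO replicate 1, 3 without shATF4 DMSO replicate 2, 4 without shCtrl Twist_OE replicate 2, 5 without shATF4 Twist_OE replicate 1 and 16 without shCtrl Twist_OE replicate 1.

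Within Twist_OE, a smaller share of members than of all genes was called between hairpins. Of 33 members, 6 mRNAs were lower in shATF4 and MT-TP higher, against 47.2% (23.3% higher and 23.9% lower) of all genes called. They were MT-ND6 (-0.46 ± 0.15), MT-CO2 (-0.42 ± 0.13), MT-CYB (-0.39 ± 0.13), MT-ND5 (-0.38 ± 0.12), MT-CO1 (-0.32 ± 0.11) and MT-ND4L (-0.27 ± 0.08). Without shATF4 Twist_OE replicate 1 or shCtrl Twist_OE replicate 2 the count was 3, and without shCtrl Twist_OE replicate 1 it was 13. TWIST1 itself moved with these groups. It was at 128 ± 12.7 CPM in shCtrl Twist_OE and 30.6 ± 0.948 in shATF4 Twist_OE (SD, n = 2), against 16.6 and 12.2 CPM in DMSO. The 10 mammary epithelial markers, none at 0, fell with Twist_OE in shCtrl (10 of 10, median -3.76) and were higher in shATF4 than in shCtrl Twist_OE (10 of 10, median 3.28). The stellate list rose from 109 CPM in shCtrl DMSO to between 1998 and 2022 CPM in shCtrl Twist_OE, and lay between 302 and 344 CPM in shATF4 Twist_OE. The part of Twist level and cell state in the members' difference was not tested.

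TGFbeta gave 1 call among the 28 members in shCtrl LX-2, the tRNA MT-TN, lower with a log2 change of -0.50 ± 0.12 (edgeR adjusted p = 0.00556), against 22.1% (11.1% higher and 11% lower) of all genes. It was not called without TGFbeta replicate 1. The median of the mRNAs was 0.10, and -0.027 with scaling to total counts, which moved the median of all genes by -0.13. In shATF4 cells 6 members rose and 3 fell, against 27.6% (13.5% higher and 14.1% lower) of all genes called. MT-CO2 had 2161 and 2368 CPM in DMSO and 2848 and 2819.8 in TGFbeta, a log2 change of 0.45 ± 0.08 (edgeR adjusted p = 6.70e-04). MT-ND2 (0.40 ± 0.09), MT-ND4 (0.37 ± 0.10), MT-ATP6 (0.31 ± 0.11) and MT-CYB (0.31 ± 0.11) rose as well, though each was lost without 1 or more of the 4 libraries. The count of 9 was 4 without shATF4 DMSO replicate 1 and 2 with the discordant library in the fit. The tested difference between hairpins was called in 2 members, the tRNAs MT-TC and MT-TY, against 0.987% (0.563% higher and 0.424% lower) of all genes, and in no mRNA; 0 to 2 were called without 1 library. The stellate markers rose with TGFbeta in both hairpins (7 of 8 higher and none lower in each), and their part was not tested. With the discordant library in the fit no member was called in the test between hairpins or in shCtrl TGFbeta.

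MT-RNR1 had the largest hairpin difference of the mRNAs and rRNAs called in unstressed LX-2. It had 201 and 218 CPM in shCtrl DMSO and 339 and 381 in shATF4 DMSO, a log2 difference of 0.77 ± 0.09 (edgeR adjusted p = 5.34e-05). In TGFbeta it had 184 and 199 against 326 and 315 CPM, a log2 difference of 0.73 ± 0.09 (edgeR adjusted p = 3.62e-05). The hairpins did not overlap in either condition. In thapsigargin (1 shCtrl library) and AA_Dep the log2 differences of MT-RNR1 between hairpins were smaller, -0.18 ± 0.11 and 0.10 ± 0.09. The stellate marker list moved with the hairpin as well. It summed to 6350 to 6620 CPM in shCtrl and 3511 to 3594 CPM in shATF4 in DMSO (6 of 8 markers lower), and to 17496 to 17615 and 7954 to 7975 CPM in TGFbeta (5 of 8 lower and 1 higher), and its part was not tested. Thapsigargin changed MT-RNR1 by 0.63 ± 0.11 in shCtrl and -0.32 ± 0.09 in shATF4, and AA_Dep by 0.33 ± 0.09 and -0.35 ± 0.09, all 4 past the threshold. Of these, the shATF4 falls were not called without shATF4 DMSO replicate 2, that under thapsigargin also without thapsigargin replicate 2, and the shCtrl rise in AA_Dep not without shCtrl DMSO replicate 1. The response differed between hairpins by -0.95 ± 0.14 (edgeR adjusted p = 7.01e-04) for thapsigargin and -0.67 ± 0.13 (edgeR adjusted p = 0.00403) for AA_Dep. MT-RNR2 differed by -0.48 ± 0.13 (edgeR adjusted p = 0.0357) and -0.53 ± 0.11 (edgeR adjusted p = 0.00806) in the same tests; the first was lost without either shATF4 DMSO library, shATF4 thapsigargin replicate 2 or shCtrl DMSO replicate 1, and the second without shATF4 DMSO replicate 2. With the discordant library the fit called neither rRNA, and MT-RNR2 was at 0.24 in the thapsigargin test.

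The 4 LX-2 hairpin comparisons were counted over all 28 members tested. In DMSO 2 members were higher in shATF4 (MT-RNR1 and MT-ND2) and 2 lower (MT-TN and MT-TP), against 11.6% (6.28% higher and 5.3% lower) of all genes; without shATF4 DMSO replicate 1 or shCtrl DMSO replicate 2 the count of 4 was 2, and MT-ND2 was lost without any one of the 4 libraries. In TGFbeta 5 were higher (MT-RNR1, MT-ND2, MT-CO2, MT-ATP6 and MT-ND4) and 3 tRNAs lower, against 21.7% (10.9% higher and 10.7% lower); the count of 8 was 5 without shCtrl TGFbeta replicate 1, and MT-ATP6 and MT-ND4 were lost without that or either shATF4 library. In thapsigargin MT-ND3 and MT-TC were lower and none higher, against 5.2% (3.11% higher and 2.09% lower); without either shATF4 library MT-ND3 was not called, and with the discordant library it was at 0.38. In AA_Dep MT-ND1, MT-CYB, MT-ND5, MT-ND2 and MT-RNR2 were lower and none higher, against 9.91% (3.87% higher and 6.04% lower). That count of 5 was 0 without shATF4 AA_Dep replicate 1, 1 without replicate 2, 2 without shCtrl AA_Dep replicate 2 and 15 without shCtrl AA_Dep replicate 1. With the discordant library in the fit it was 0 in DMSO, thapsigargin and AA_Dep and 1 in TGFbeta. The thapsigargin response differed between hairpins in 3 members (MT-RNR1, MT-RNR2 and MT-TN), against 6.13% (3.67% higher and 2.46% lower) of all genes, and in 1 without either shATF4 DMSO library or shATF4 thapsigargin replicate 2.

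Between the lines, the thapsigargin response of shCtrl cells differed in 6 members, against 27.7% (12.8% higher and 14.9% lower) of all genes: MT-ATP8 (2.57 ± 0.47, edgeR adjusted p = 1.37e-04), MT-RNR1 (1.03 ± 0.18, edgeR adjusted p = 7.63e-05), MT-ND3 (0.98 ± 0.25, edgeR adjusted p = 0.00382), and 2 scarce tRNAs (MT-TR and MT-TS2) were higher in LX-2 and MT-TN lower (-1.08 ± 0.23, edgeR adjusted p = 6.69e-04). The median of the mRNAs, 0.07, had no steady sign: it was -0.11 without HMLE shCtrl thapsigargin replicate 2 and -0.82 with the discordant LX-2 library, with which 3 members were called.

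Of the 22 tRNAs, 5 carried nearly all the tRNA counts. MT-TN (for asparagine), MT-TC (cysteine), MT-TP (proline), MT-TL1 (leucine) and MT-TY (tyrosine) averaged 54.2, 37.8, 18.4, 4.89 and 3.72 CPM over the libraries, and the next 1.18. MT-TN, MT-TC and MT-TY lie next to each other between MT-ND2 and MT-CO1. All tRNAs together summed to 79.5 ± 2.67 CPM in HMLE shCtrl DMSO and 254 ± 6.08 in AA_Dep (SD, n = 2), and to 251 in the shATF4 AA_Dep library. In HMLE shCtrl AA_Dep MT-TN had 133 and 127 CPM against 21.9 and 22.9 in DMSO, a log2 change of 2.42 ± 0.13 (edgeR adjusted p = 1.25e-11). MT-TL1 (3.44 ± 0.23), MT-TY (2.67 ± 0.23), MT-TC (0.80 ± 0.10) and MT-TP (0.46 ± 0.14) rose too.

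The other 17 tRNAs summed to 1.99 and 2.54 CPM in the HMLE shCtrl DMSO libraries and to 11.9 and 14.1 CPM in AA_Dep. Single genes of these were near the limit of detection. MT-TV, for valine, lies between the rRNAs and had 2 and 0 counts in the shCtrl DMSO libraries and 36 and 53 in AA_Dep. MT-TK, for lysine, had 1 and 0 against 24 and 21. Both passed the filter only through AA_Dep, so their rise is no separate support. How far these libraries capture RNA as short as a tRNA is not given in the sources used here, so tRNA levels are compared between libraries and not with the mRNAs.

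In LX-2, MT-TN stood out among the tRNAs. It had 109.6 and 112 CPM in shCtrl DMSO and 62.3 and 64.5 in shATF4 DMSO, a log2 difference of -0.82 ± 0.12 (edgeR adjusted p = 3.24e-04). In shCtrl it fell under TGFbeta, thapsigargin (-1.03 ± 0.15) and AA_Dep (-0.81 ± 0.12). The thapsigargin value rests on 1 library at 58.2 CPM, and the discordant library had 118 CPM, above both DMSO libraries. With that library in the fit no member was called in shCtrl TGFbeta or AA_Dep. MT-TC reached its lowest level in shATF4 TGFbeta, with 9.95 and 7.92 CPM against 36.9 and 36.0 in DMSO, a log2 change of -1.90 ± 0.21 (edgeR adjusted p = 7.72e-06). MT-TY changed there by -1.79 ± 0.27. The differences between hairpins in the TGFbeta response were -1.61 ± 0.28 (edgeR adjusted p = 0.00918) for MT-TC and -1.74 ± 0.36 (edgeR adjusted p = 0.0305) for MT-TY, and neither passed without TGFbeta replicate 2 of either hairpin or without shCtrl DMSO replicate 1, nor with the discordant library in the fit.

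Nuclear subunits of the same complexes fell in HMLE AA_Dep. Of 74 nuclear subunits of complexes I, III and IV and the ATP synthase, 69 fell and 1 rose in shCtrl, with a median log2 change of -0.74, beside 12 risen and none fallen of the 13 mitochondrial mRNAs. Complex I had 33 of 37 lower (NDUFA8 at -1.25, NDUFB6 at -1.25), complex III 9 of 9 (UQCR10 at -1.25), complex IV 11 of 11 (NDUFA4 at -1.06) and the ATP synthase 16 of 17 (ATP5F1C, the gamma subunit, at -1.53). All 4 subunits of complex II, which has no mitochondrial gene, fell as well, from -0.46 (SDHD) to -0.84 (SDHB). In shATF4 cells 68 of the 74 fell and 1 rose, median -0.69. All genes tested had a median of 0.00, and 32.6% of them fell.

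The unstressed lines also had counts in opposite directions. In shCtrl DMSO, 58 of the 74 nuclear subunits were lower in LX-2 than in HMLE and 4 higher, with a median of -0.81, while 12 of 13 mitochondrial mRNAs were higher. COX6C (-2.28) and NDUFB9 (-3.50) had the largest differences in their complexes. Twist_OE in shCtrl HMLE gave 42 nuclear subunits lower and 6 higher (median -0.23) beside 13 mRNAs higher. Thapsigargin in shCtrl HMLE gave 11 lower and 2 higher (median -0.03) beside 9 mRNAs lower, and shATF4 LX-2 under AA_Dep gave 35 higher and 9 lower (median 0.41) beside 8 mRNAs lower and 2 higher. Of all 20308 genes tested between the lines, 7287 were higher in LX-2 and 7002 lower. Of all 17940 genes tested in HMLE, 5083 rose and 5176 fell with Twist_OE in shCtrl, and 3336 and 3263 with thapsigargin. The nuclear subunits called under thapsigargin were below these shares in both directions. In shATF4 LX-2 AA_Dep, 3786 of 18649 genes rose and 4120 fell. The counts of mitochondrial and nuclear subunits were not tested against each other.

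**Figure D5:**
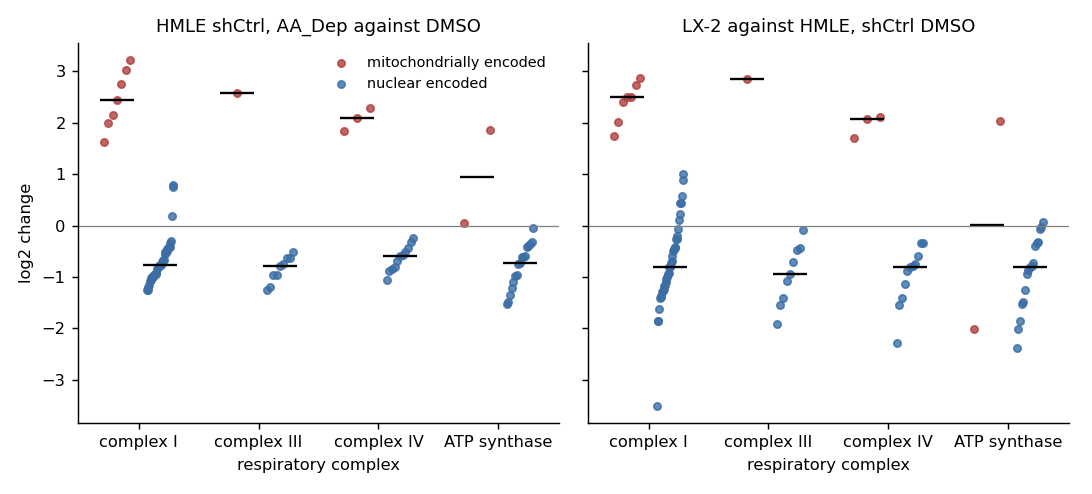
Log2 changes (y axis) of mitochondrially encoded (red) and nuclear encoded (blue) subunits of the 4 respiratory complexes (x axis) for AA_Dep against DMSO in HMLE shCtrl (left) and for LX-2 against HMLE in shCtrl DMSO (right). Points are genes and bars are medians; the mitochondrial medians of complexes I, III and IV lie between 2.06 and 2.85 and the nuclear ones between -0.93 and -0.60.

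Most genes of the lists for making and handling mitochondrial RNA fell in HMLE AA_Dep too (log2 changes follow the names). Of 14 genes of mitochondrial DNA transcription and replication 13 fell and 1 rose, among them POLRMT, the mitochondrial RNA polymerase (-1.39), POLG2, the accessory subunit of the DNA polymerase (-1.55), MTERF3 (-1.22) and SSBP1 (-0.82). Of 32 RNA processing and stability genes 24 fell and 2 rose. ELAC2, which cuts tRNA 3' ends, changed by -1.14, SLIRP, which binds mitochondrial mRNA, by -1.09, and PRORP, which cuts tRNA 5' ends, was one of those that rose (0.96). The mitochondrial tRNA synthetases had 15 of 17 lower and 1 higher, the translation factors 8 of 10 lower and 1 higher, and the chaperones and proteases 12 of 14 lower. Of 6 regulators of biogenesis tested, 4 fell, PPARGC1B most (-1.64), and none rose. Of all 17940 genes tested, 5841 fell and 5225 rose in HMLE shCtrl AA_Dep.

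For other comparisons single lists or genes are given, and their remaining lists are not given here. Under thapsigargin in shCtrl HMLE, 11 of 14 transcription and replication genes fell and none rose (MTERF1 -0.90, TWNK, the DNA helicase, -0.84, TFB2M, a transcription initiation factor, -0.64). With Twist_OE in shCtrl HMLE, 27 of 32 processing genes fell and 2 rose (FASTKD5 -1.06, LRPPRC, a stabiliser of mitochondrial mRNA, -0.84), beside 13 mRNAs that rose. In LX-2 shCtrl AA_Dep, 5 transcription and replication genes rose and 2 fell, with TFAM, which packs mitochondrial DNA, at 0.58, and PPARGC1A, a coactivator of biogenesis, rose by 4.31. Between the unstressed lines 9 of the 14 were lower in LX-2 and none higher, with TFB2M at -2.41 and TFAM at -1.88. Of all 17940 genes tested in HMLE, 3336 rose and 3263 fell with thapsigargin in shCtrl, and 5083 and 5176 with Twist_OE in shCtrl. In LX-2 shCtrl AA_Dep 4261 of 18649 genes rose and 4235 fell. Between the lines 7287 of 20308 were higher in LX-2 and 7002 lower. The lists were chosen with results of these data known, and their counts support no direction on their own.

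Nuclear copies of mitochondrial genes were higher in the same HMLE libraries. The files held 404 such pseudogenes, and MTND2P28, MTATP6P1 and MTCO1P12 carried most of their counts. Their summed level was 39.3 and 36.4 CPM in HMLE shCtrl DMSO and 276 and 303 CPM in AA_Dep. MTND2P28 had 16.2 and 17.4 CPM in DMSO and 169.6 and 183 in AA_Dep, next to MT-ND2 at 1881 and 2132 CPM. MTATP6P1 had 16.3 and 13.5, then 88.6 and 100.3 CPM. In LX-2 the sum lay between 136 and 266 CPM, and it was 3.34 CPM in the discordant library. MTCO3P12 and MTND4P12, the next in level, stayed under 0.6 CPM in every library. Reads of a copy and of its mitochondrial source cannot be told apart in these counts, and the part of the copies in the members' changes was not tested.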

How the data were processed

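RNA was sequenced as mRNA libraries (SMARTER kit, per the labels' protocols) and deposited as 32 files of raw read counts per Ensembl gene, 2 samples in each of 16 groups. The authors' tools include STAR, featureCounts and DESeq, per the submitters' processing notes, which give no version and name the builds hg19 and hg38 without saying which was used for the counts. The 9 ChIP-seq samples were not analysed here. Lines without a gene (at most 452 a file) were dropped. Symbols came from the supplied gene name table, and 58207 of 58735 identifiers matched.

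Members are all genes with a symbol starting MT-. Members and gene lists were chosen with earlier results of these data known. Counts were tested with edgeR 4.0.16 in R 4.3.3 (filterByExpr by group with a minimum count of 10, TMM scaling, quasi-likelihood F test), in 1 fit for each line of 15 libraries and 1 of all 30 for comparisons between lines. P-values were adjusted by Benjamini-Hochberg over all genes, at 0.05. The SE is the log2 change over the root of F. CPM values are counts scaled to the library total. The identical HMLE shATF4 AA_Dep files were used once, and LX-2 shCtrl thapsigargin replicate 2 was left out. Alternatives were DESeq2 1.42.0, other scalings, no count filter, fits of the compared groups alone, a replicate block, a minimum change, the left-out library, and leaving out each library. The edgeR step was tested on simulated data. All members could be named; of a list, at most 4 called genes (largest changes) and at most 2 more were. tRNAs were named by their mean level and the 5 nuclear copies by theirs.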

Additional observations from a re-analysis of the deposited data

Results flagged for a closer look

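In the tests that compare the change from DMSO between hairpins, members with a different response numbered 2 for TGFbeta in LX-2 (MT-TC and MT-TY, both lower in shATF4), 3 for thapsigargin in LX-2 (both rRNAs lower and MT-TN higher in shATF4), 4 for AA_Dep in LX-2 (both rRNAs, MT-ND1 and MT-ND2, lower in shATF4) and 9 for Twist_OE in HMLE (8 lower and 1 higher in shATF4). Between the lines, 6 members differed in the thapsigargin response of shCtrl cells (5 higher and 1 lower in LX-2) and 22 in the AA_Dep response (1 higher and 21 lower in LX-2). Of 18649 genes in LX-2, 105 were higher and 79 lower for TGFbeta, 684 and 459 for thapsigargin and 730 and 1241 for AA_Dep. For Twist_OE in HMLE, 2929 and 2399 of 17940 genes were. Between the lines, 2597 and 3033 of 20308 were for thapsigargin and 4264 and 3912 for AA_Dep. The 9 for Twist_OE and the 6 for thapsigargin were smaller shares of the members than of all genes. In the LX-2 shCtrl thapsigargin library left out of the tests, 8 members lay above both shCtrl DMSO libraries although all 13 mRNAs lay below every other LX-2 library. Of the 8, MT-RNR1 was at 253 CPM against 201 and 218 CPM in DMSO, MT-TN at 118 CPM and MT-TC at 72.4 CPM. How many of all genes lay above both DMSO libraries is not given here.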

How the results depend on the processing

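The counts of called members in HMLE AA_Dep (both hairpins) and between the unstressed lines stayed within 1.5 times of the main count under every alternative run, and most others did not. Below, a group name alone stands for its comparison with DMSO, a hairpin comparison sets shATF4 against shCtrl, and a hairpin or line response test compares the changes from DMSO. The cause of each move was not tested. A minimum absolute log2 change of 1 gave 0 for the HMLE DMSO hairpin comparison, the HMLE Twist_OE hairpin response test, the HMLE Twist_OE hairpin comparison, HMLE shATF4 thapsigargin, HMLE shATF4 Twist_OE, HMLE shCtrl thapsigargin, the LX-2 AA_Dep hairpin response test, the LX-2 AA_Dep hairpin comparison, the LX-2 DMSO hairpin comparison, the LX-2 thapsigargin hairpin response test, LX-2 shCtrl TGFbeta, 1 for the HMLE thapsigargin hairpin comparison and the LX-2 thapsigargin hairpin comparison, 2 for HMLE shCtrl Twist_OE, the LX-2 TGFbeta hairpin comparison, LX-2 shATF4 TGFbeta, LX-2 shCtrl AA_Dep, 5 for LX-2 shATF4 AA_Dep and LX-2 shATF4 thapsigargin and 6 for LX-2 shCtrl thapsigargin. Fits with no filter on low counts gave 4 for LX-2 shCtrl TGFbeta, 7 for HMLE shATF4 thapsigargin, HMLE shATF4 Twist_OE, the LX-2 thapsigargin hairpin response test, 8 for the HMLE AA_Dep hairpin comparison, 10 for the LX-2 AA_Dep hairpin comparison and the LX-2 thapsigargin hairpin comparison, 11 for the LX-2 AA_Dep hairpin response test, 12 for the HMLE DMSO hairpin comparison, 13 for the HMLE AA_Dep hairpin response test and the HMLE thapsigargin hairpin response test, 14 for the LX-2 TGFbeta hairpin comparison and LX-2 shATF4 TGFbeta, 15 for the HMLE Twist_OE hairpin comparison and 16 for the HMLE Twist_OE hairpin response test. Fits to the compared groups alone gave 0 for the LX-2 AA_Dep hairpin comparison, 2 for the LX-2 AA_Dep hairpin response test and LX-2 shCtrl TGFbeta, 3 for the HMLE thapsigargin hairpin response test, 5 for HMLE shATF4 thapsigargin, 6 for HMLE shATF4 Twist_OE, 7 for the LX-2 thapsigargin hairpin response test, 9 for the HMLE DMSO hairpin comparison and the LX-2 thapsigargin hairpin comparison, 10 for the HMLE AA_Dep hairpin response test and the HMLE AA_Dep hairpin comparison and 17 for the LX-2 TGFbeta hairpin comparison and LX-2 shATF4 TGFbeta. With the replicate number as a block the counts were 2 for the HMLE AA_Dep hairpin comparison and HMLE shATF4 Twist_OE, 3 for HMLE shATF4 thapsigargin, 10 for the HMLE thapsigargin hairpin response test and 14 for the HMLE Twist_OE hairpin response test. Scaling to total counts in place of TMM gave 1 for the HMLE DMSO hairpin comparison and the LX-2 AA_Dep hairpin comparison and 5 for the HMLE Twist_OE hairpin response test. DESeq2's Wald test gave 0 for HMLE shATF4 thapsigargin and HMLE shATF4 Twist_OE, 2 for the HMLE Twist_OE hairpin comparison and HMLE shCtrl thapsigargin, 3 for the HMLE Twist_OE hairpin response test and 4 for the LX-2 thapsigargin hairpin comparison. The fits that held the discordant LX-2 shCtrl thapsigargin replicate 2 gave 0 for the LX-2 AA_Dep hairpin response test, the LX-2 AA_Dep hairpin comparison, the LX-2 DMSO hairpin comparison, the LX-2 TGFbeta hairpin response test, the LX-2 thapsigargin hairpin response test, the LX-2 thapsigargin hairpin comparison, LX-2 shCtrl AA_Dep, LX-2 shCtrl TGFbeta, 1 for the LX-2 TGFbeta hairpin comparison, LX-2 shATF4 AA_Dep, LX-2 shATF4 thapsigargin, 2 for LX-2 shATF4 TGFbeta, 3 for the thapsigargin line response test, 5 for LX-2 shCtrl thapsigargin and 10 for the AA_Dep line response test. Leaving out each library in turn gave 0 to 2 for the HMLE DMSO hairpin comparison, HMLE shATF4 thapsigargin, HMLE shATF4 Twist_OE, the LX-2 TGFbeta hairpin response test, 0 to 8 for the HMLE thapsigargin hairpin response test, 2 to 16 for the HMLE Twist_OE hairpin response test, 3 to 13 for the HMLE Twist_OE hairpin comparison, 1 to 11 for HMLE shCtrl thapsigargin, 11 to 17 for HMLE shCtrl Twist_OE, 2 to 14 for the LX-2 AA_Dep hairpin response test, 0 to 15 for the LX-2 AA_Dep hairpin comparison, 2 to 3 for the LX-2 DMSO hairpin comparison, 5 to 8 for the LX-2 TGFbeta hairpin comparison, 1 to 3 for the LX-2 thapsigargin hairpin response test, 0 to 1 for the LX-2 thapsigargin hairpin comparison, LX-2 shCtrl TGFbeta, 4 to 7 for LX-2 shATF4 TGFbeta, 4 to 9 for LX-2 shATF4 thapsigargin and 10 to 11 for LX-2 shCtrl thapsigargin. Groups of 1 library could not be left without it. The labels do not say whether the replicate numbers pair the samples, and the main fits did not pair them. In each HMLE group of 2 libraries, MT-CYB took a larger part of the mitochondrial mRNA counts in replicate 1 than in replicate 2. MT-CO2 and MT-CO3 took a smaller part in replicate 1 in each of these groups, so a pairing in HMLE cannot be dismissed. Same-numbered samples of different groups had deviations that correlated at a median of 0.000799 in LX-2 (from -0.198 to 0.168, 1 of 21 pairs of groups over 0.1) and 0.0220 in HMLE (from -0.0204 to 0.119, 2 of 21 over 0.1). No other comparison's count moved by over 1.5 times with the block. With DESeq2's size factors or scaling on nuclear genes alone, 29 of 29 counts stayed within 1.5 times. Of 2336 alternative values of 181 called mRNA and rRNA changes, 2056 kept direction and call, 277 lost the call and 3 reversed. Those 3 came with the discordant library: MT-ND3 at 0.38 in the LX-2 thapsigargin hairpin comparison, MT-ND3 at -0.27 in LX-2 shCtrl thapsigargin and MT-RNR2 at 0.24 in the LX-2 thapsigargin hairpin response test. The median of the mRNAs was 0.037 in LX-2 shCtrl AA_Dep without AA_Dep replicate 1 and -0.34 without replicate 2. It changed sign to -0.027 in LX-2 shCtrl TGFbeta with total counts, and in the thapsigargin line response test to -0.82 with the discordant library and -0.11 without HMLE shCtrl thapsigargin replicate 2. Total counts moved the median of all genes by over 0.1 (log2) in 5 comparisons: -0.13 in TGFbeta of both LX-2 hairpins, 0.11 in HMLE shCtrl AA_Dep, 0.19 between the lines and 0.16 in the thapsigargin line response test. Depth limits the tRNAs, of which 9 in LX-2 and 4 in HMLE had too few counts to test, and MT-ATP8 in LX-2.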
